A study of Mus musculus with 24 samples.

Results

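The CC chemokine ligands described here are 10 named genes, Ccl2, Ccl3, Ccl4, Ccl5, Ccl6, Ccl7, Ccl9, Ccl12, Ccl20 and Ccl22. They were chosen by symbol from the 54838 genes of the count table, and each symbol matched 1 gene. Their transcripts were measured by poly-A RNA sequencing in the mouse microglial line SIM-A9, in 8 groups of 3 libraries. RNA was taken 2 h after the addition of a probe to serum-free medium, and the study asked how far probes used on neurons provoke an inflammatory response when set beside lipopolysaccharide (LPS), the bacterial cell wall component used as the positive control. The groups were untreated control, LPS, single-walled carbon nanotubes labelled (GT)6 SWCNT, a name used for wrapping with a short DNA strand, carboxylated nanotubes (COOH SWCNT), adeno-associated virus (AAV), and 3 dyes. The dyes were Fura-2, which reports calcium, and the voltage-sensitive DiBASC2 (spelled DiSBAC2 in the table's column names) and Di-2-ANEPEQ. All groups shared the cell line, the serum-free medium and the time, and the final concentrations of the probes were not given in the sources used here. The labels do not say whether the 3 libraries of a group came from separate cultures, so p-values measure the spread between these libraries only, which may be technical.

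CC chemokines are small secreted proteins with a pair of adjacent cysteines near the N terminus, and they act on G protein-coupled receptors of the CCR family to guide the movement of leukocytes. Microglia, the resident macrophages of the brain, make several of them when Toll-like receptors signal through NF-kB and AP-1 factors. Ccl2, Ccl7 and Ccl12 are ligands of Ccr2, the receptor that draws inflammatory monocytes. Ccl3, Ccl4 and Ccl5 attract macrophages and T cells, and Ccl3 and Ccl5 act on Ccr1. Ccl6 and Ccl9 are rodent ligands of Ccr1, Ccl22 acts on Ccr4 and Ccl20 on Ccr6.

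All 10 genes are annotated as protein-coding in GENCODE M21 on GRCm38, and no exon of theirs overlaps an exon of another gene. Ccl2 (ENSMUSG00000035385.5, chromosome 11, 82035571 to 82037453), Ccl7 (ENSMUSG00000035373.2, 82045712 to 82047525) and Ccl12 (ENSMUSG00000035352.3, 82101845 to 82103400) follow each other on the plus strand. After a gap of 1422.4 kb come Ccl5 (ENSMUSG00000035042.2, 83525778 to 83530518), Ccl9 (ENSMUSG00000019122.8, 83572919 to 83578636), Ccl6 (ENSMUSG00000018927.3, 83587882 to 83593087) and Ccl3 (ENSMUSG00000000982.5, 83647844 to 83649355) on the minus strand. Ccl4 (ENSMUSG00000018930.3, 83662584 to 83664683) lies 13.2 kb beyond Ccl3 on the plus strand. Ccl20 (ENSMUSG00000026166.14) is on chromosome 1 at 83116766 to 83119167 and Ccl22 (ENSMUSG00000031779.3) on chromosome 8 at 94745590 to 94751699. Although several members are paralogs, 9 of the 10 had 0 stretches of 50 bases in common with transcripts of any other gene. In Ccl9, 59 of 2996 such stretches (1.97%) also occurred in other genes.

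Promoter windows from RefSeq on GRCm38.p6 were found for 6 members (Ccl3, Ccl6, Ccl9, Ccl12, Ccl20 and Ccl22), and Ccl2, Ccl4, Ccl5 and Ccl7 matched none. The 250 bases before the start site are shown, 5′ to 3′, for Ccl3 and Ccl9, 2 members that rose with LPS, for Ccl20, which was detected with LPS, and for Ccl6, which lies next to Ccl9 and went the other way. They are chr11:83649379-83649628, chr11:83578637-83578886 and chr11:83593088-83593337 on the minus strand and chr1:83116516-83116765 on the plus strand. The start sites are those of RefSeq. For Ccl3 this start lies 23 bases upstream of the GENCODE start, and for Ccl9, Ccl6 and Ccl20 it is the same base. Capitals mark matches, on either strand, to the NF-kB consensus, to the AP-1 motif TGANTCA and to the TATA motif TATAAA, with overlapping matches run together.
Ccl3: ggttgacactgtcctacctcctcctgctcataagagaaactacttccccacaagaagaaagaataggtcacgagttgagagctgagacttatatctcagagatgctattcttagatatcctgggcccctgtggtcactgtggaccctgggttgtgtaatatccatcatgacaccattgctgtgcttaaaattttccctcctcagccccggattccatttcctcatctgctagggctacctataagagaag
Ccl9: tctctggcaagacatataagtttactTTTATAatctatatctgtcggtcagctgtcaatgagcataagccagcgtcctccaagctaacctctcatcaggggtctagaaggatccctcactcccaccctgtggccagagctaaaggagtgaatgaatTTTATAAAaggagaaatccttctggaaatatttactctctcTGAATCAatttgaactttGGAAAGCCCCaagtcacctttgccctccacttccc
Ccl6: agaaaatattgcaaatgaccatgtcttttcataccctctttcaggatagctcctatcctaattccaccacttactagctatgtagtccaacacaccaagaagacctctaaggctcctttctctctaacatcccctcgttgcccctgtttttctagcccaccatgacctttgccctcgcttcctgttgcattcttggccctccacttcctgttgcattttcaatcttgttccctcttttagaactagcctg
Ccl20: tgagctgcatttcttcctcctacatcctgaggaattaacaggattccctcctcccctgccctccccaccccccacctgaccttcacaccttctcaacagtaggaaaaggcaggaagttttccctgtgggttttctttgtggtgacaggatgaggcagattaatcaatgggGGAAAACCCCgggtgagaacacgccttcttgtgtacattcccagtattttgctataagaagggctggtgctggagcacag
The NF-kB consensus matched in 2 of the 6 windows, Ccl9 and Ccl20, against 7.25% of 32851 mouse windows of the same length. The AP-1 motif matched in 1 (Ccl9), against 6.75% of all windows. The TATA motif matched in 2 (Ccl9 and Ccl12), against 12.4%. A motif like the interferon-stimulated response element matched in 0 of the 6, against 2.98%. In Ccl9 the NF-kB match began 35 bases before the start site, the AP-1 match 53 bases before it, and the nearest TATA match 92 bases before it. In Ccl20 the NF-kB match began 80 bases before the start site. A match describes letters in a window and is not a measured binding site.

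Library totals lay between 17364272 and 29259221 counts. The 12 microglia and macrophage markers were all detected, with a summed level of 2311 to 2617 CPM in every library (CPM are counts scaled to library size with TMM factors). Csf1r averaged 516 CPM over the 24 libraries, while the microglial markers P2ry12 and Tmem119 averaged 2.28 and 3.79 CPM. The astrocyte markers summed to at most 0.780 CPM and the neuron markers to at most 1.03 CPM in any library. T cell markers summed to between 1.41 and 3.53 CPM, most of it Lck, with the highest group mean, 2.96, in LPS. The defining T cell marker Cd3e had at most 1 count in any library. Oligodendrocyte markers summed to 31.9 to 41.8 CPM through Cnp, with Mog at 0, and endothelial markers to 13.3 to 19.1 CPM through Vwf, with Cldn5 at 0.

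Untreated cells already carried high levels of Ccl3, Ccl2 and Ccl4. Per kilobase of exon, the control level of Ccl3 was 435 ± 30.96 RPKM (SD, n = 3), that of Ccl2 was 179 ± 11.9 and that of Ccl4 was 80.4 ± 9.70. Ccl6 and Ccl9 were at 15.4 ± 0.923 and 15 ± 0.973 RPKM and did not differ beyond their spread. Ccl7 was at 6.69 ± 0.797, Ccl5 at 3.80 ± 0.859, Ccl12 at 2.845 ± 0.399 and Ccl22 at 0.283 ± 0.154 RPKM. Ccl20 had 0 counts in the 3 control libraries. Together the 10 genes took 0.0679 ± 0.0046% of all counts in control and 0.323 ± 0.0271% in LPS. The share was 0.203 ± 0.0118% in (GT)6 SWCNT and 0.122 ± 0.0054% in COOH SWCNT, and DiBASC2 had the lowest, 0.0455 ± 0.0007%. In Fura-2, AAV and Di-2-ANEPEQ the mean share lay between 0.0629% and 0.0711%.

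**Figure D1:**
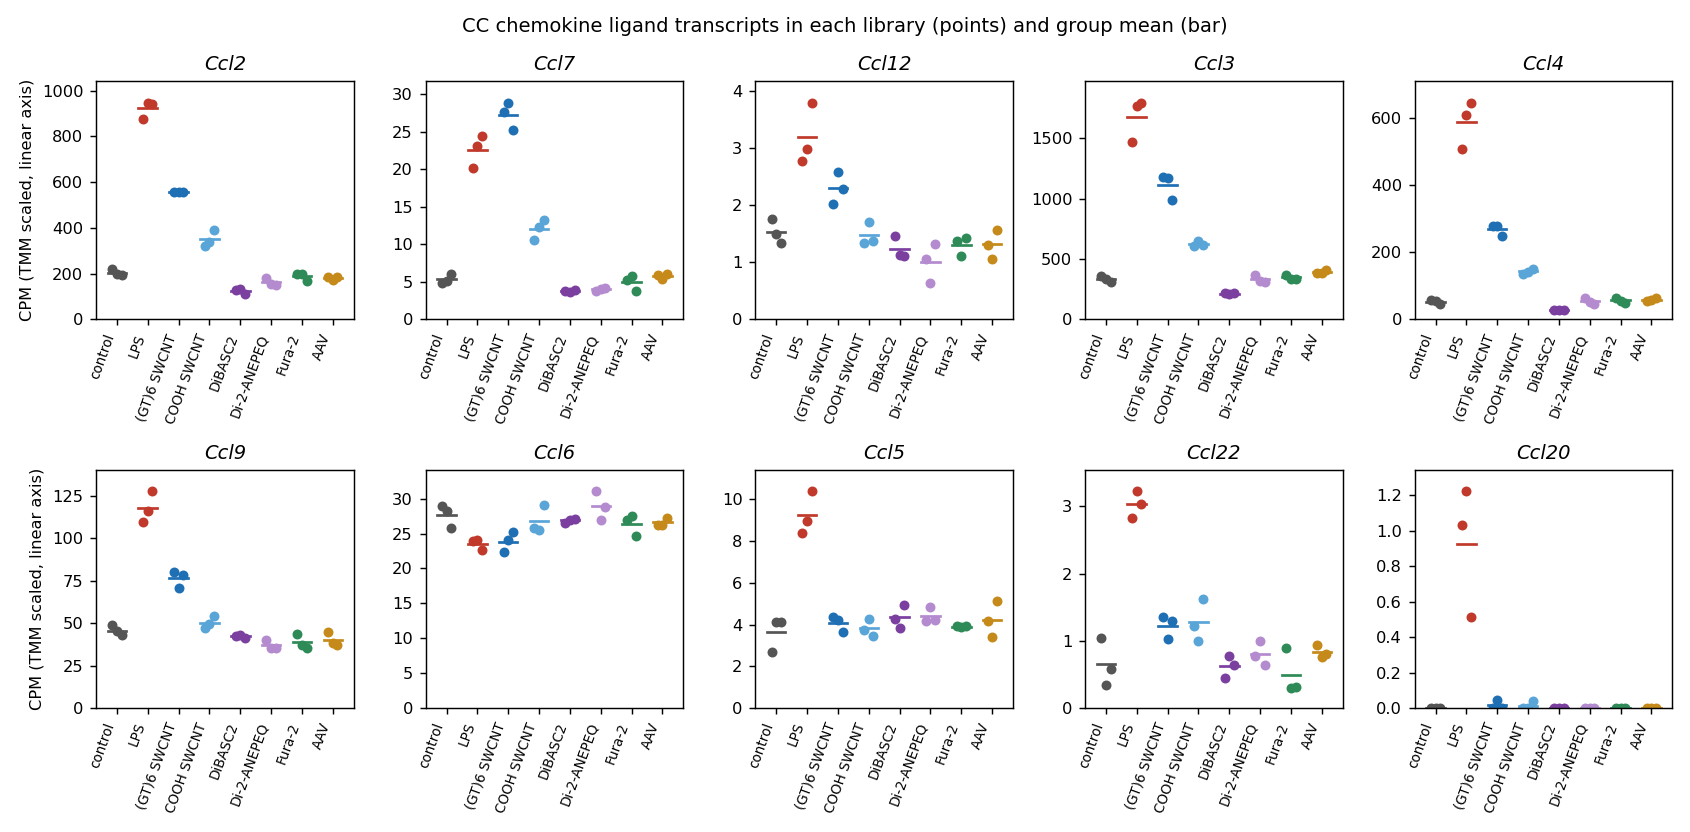
Transcript level of each CC chemokine ligand (y axis, CPM after TMM scaling, linear and starting at 0, with a scale of its own in each panel) in the 8 treatment groups (x axis). Points are single libraries and bars are means of 3. LPS libraries are highest in every panel except Ccl7, where (GT)6 SWCNT is at 27.2 CPM against 22.6 in LPS, and Ccl6, where LPS averages 23.5 CPM and control 27.6.

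LPS against control asked how the positive control changed each ligand. All 10 genes passed the filter on low counts and were called (edgeR, adjusted p under 0.05), 9 higher and 1 lower, where 28.3% of the 13116 genes tested were called, 13.8% higher and 14.5% lower. Ccl20 passed that filter through its LPS libraries alone, which already favoured a higher level in LPS, so its call adds no support. The median log2 fold change of the 10 genes was 2.13, also with Ccl20 set to its lower bound, and that of all genes was −0.01.

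Of the Ccr2 ligands, Ccl2, the main monocyte attractant, was at 219, 197.5 and 194 CPM in the control libraries and at 877, 947 and 942 CPM with LPS. The LPS libraries lay far above the controls, 4.53-fold on average (log2 fold change 2.18 ± 0.07 SE, adjusted p 1.49e-25). Ccl7, its neighbour in the genome, was at 4.89, 5.11 and 6.09 CPM in control and at 20.2, 23.05 and 24.45 CPM with LPS, 4.22-fold higher (2.08 ± 0.11, adjusted p 9e-18). Ccl12 was much scarcer, with 25 to 35 counts in each control library and 51 to 81 in each LPS library, and rose 2.09-fold (1.06 ± 0.22, adjusted p 0.000181).

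Among Ccl3, Ccl4 and Ccl5, Ccl4 had the largest fold change. It was at 58.96, 53.9 and 46.2 CPM in control and at 509, 611 and 647 CPM with LPS, an 11.1-fold rise (log2 fold change 3.47 ± 0.09, adjusted p 5.69e-28). Ccl3, which lies beside it, was the most abundant transcript of the family in both groups. It was at 358, 332 and 310.2 CPM in control and at 1472, 1766 and 1794 CPM with LPS, 5.03-fold higher (2.33 ± 0.07, adjusted p 1.97e-26). Ccl5, a T cell and monocyte attractant, rose less, from 2.69, 4.13 and 4.11 CPM to 8.37, 8.99 and 10.4 CPM (2.52-fold, 1.33 ± 0.15, adjusted p 2.08e-09). For Ccl3, Ccl4 and Ccl5 every LPS library lay above every control library.

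The rodent Ccr1 ligands Ccl9 and Ccl6, 9.2 kb apart, moved in opposite directions. Ccl9 was at 48.7, 45.45 and 42.8 CPM in control and at 109.5, 116 and 128 CPM with LPS, 2.58-fold higher (1.37 ± 0.07, adjusted p 1.76e-18). Ccl6 was at 28.9, 28.2 and 25.7 CPM in control and at 23.96, 24.1 and 22.6 CPM with LPS, and it fell by 0.23 ± 0.07 on the log2 scale (adjusted p 0.00882). The groups did not overlap, but the Ccl6 call was lost in 3 of 6 fits with a single library removed, namely without control replicate 1 or 2 or LPS replicate 3 (adjusted p up to 0.0720). In bulk RNA, fewer cells that express a gene and less RNA per cell cannot be told apart.

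Ccl22, which attracts Ccr4-bearing T cells, rose from 1.04, 0.340 and 0.587 CPM to 2.83, 3.22 and 3.04 CPM (4.75-fold, 2.25 ± 0.31, adjusted p 3.54e-07). Its control libraries held only 8 to 19 counts, with an SD of 54.3% of the mean. Ccl20, the Ccr6 ligand, had 19, 25 and 11 counts in the LPS libraries and 0 in every control library. Set against a floor of 3 counts per library, Ccl20 was at least 6.11-fold higher with LPS.

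Both kinds of nanotube raised the ligands that are most abundant in these cells, Ccl2, Ccl3, Ccl4, and also Ccl7, while Ccl5 was called in neither. In (GT)6 SWCNT against control, 9 members could be judged, of which 5 were called higher and 1 lower, where 20.4% of all genes were called, 9.90% higher and 10.5% lower. In COOH SWCNT against control 5 were called higher and 0 lower, where 20.0% of all genes were called, 9.39% higher and 10.6% lower. The median log2 fold change was 0.94 in (GT)6 SWCNT and 0.78 in COOH SWCNT, against −0.02 and 0.00 over all genes. The treatments share the same control libraries, so their fold changes against control are not independent of each other.

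Ccl2 was at 558, 558 and 557 CPM in (GT)6 SWCNT and at 322, 339 and 389 CPM in COOH SWCNT. That was 2.74-fold (log2 fold change 1.46 ± 0.07, adjusted p 1.46e-19) and 1.72-fold (0.78 ± 0.07, adjusted p 1.78e-11) above control, with no overlap of libraries. Ccl7 was at 27.6, 28.9 and 25.2 CPM in (GT)6 SWCNT, 5.10-fold higher (2.35 ± 0.11, adjusted p 3.51e-19). In COOH SWCNT it was at 10.55, 12.3 and 13.3 CPM, 2.24-fold higher (1.16 ± 0.12, adjusted p 2.47e-09). Ccl7 therefore had the largest log2 fold change of the members in (GT)6 SWCNT, level with Ccl4 within their standard errors. Ccl12 was at 2.01, 2.58 and 2.29 CPM in (GT)6 SWCNT against 1.76, 1.49 and 1.34 in control, a difference that was not called (0.59 ± 0.23, adjusted p 0.0638), and its COOH SWCNT libraries overlapped the controls (−0.07 ± 0.24, adjusted p 0.892).

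Ccl4 was at 279.6, 278 and 249.6 CPM in (GT)6 SWCNT, 5.08-fold above control (2.34 ± 0.09, adjusted p 6.17e-22). It was at 135, 143 and 151.5 CPM in COOH SWCNT, 2.695-fold above control (1.43 ± 0.09, adjusted p 5.89e-15). Ccl3 was at 1182, 1168 and 988 CPM in (GT)6 SWCNT (3.34-fold, 1.74 ± 0.07, adjusted p 7.61e-22). In COOH SWCNT Ccl3 was at 606, 649 and 616 CPM (1.87-fold, 0.90 ± 0.07, adjusted p 3.15e-13). For both genes all nanotube libraries exceeded all control libraries. Ccl5, at 3.63 to 4.35 CPM in (GT)6 SWCNT and 3.45 to 4.26 in COOH SWCNT, overlapped the controls in both. Its log2 differences were 0.16 (95% confidence interval −0.18 to 0.49) and 0.05 (−0.29 to 0.38).

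Ccl9 was called higher than control with (GT)6 SWCNT and not with COOH SWCNT. It was at 80.3, 70.6 and 78.7 CPM in (GT)6 SWCNT, 1.675-fold above control (0.74 ± 0.07, adjusted p 2.09e-10), while in COOH SWCNT it was at 47.5, 49.3 and 54.0 CPM, which overlapped the controls and was not called (0.14 ± 0.07, adjusted p 0.205). Ccl6 was lower in (GT)6 SWCNT, at 22.3, 24.03 and 25.2 CPM (−0.22 ± 0.07, adjusted p 0.0195). That call was lost in 4 of 6 fits, without control replicate 1 or 2 or (GT)6 SWCNT replicate 1 or 2 (adjusted p up to 0.177). Ccl22 was called higher in COOH SWCNT, at 1.21, 1.002 and 1.62 CPM (1.02 ± 0.35, adjusted p 0.0341), although its libraries overlapped the controls. The call was lost without control replicate 2 or 3 or COOH SWCNT replicate 1 or 3, with a log2 fold change down to 0.66 and an adjusted p up to 0.236. In (GT)6 SWCNT Ccl22 had a similar difference that was not called (0.94 ± 0.36, adjusted p 0.0575), and it was called without control replicate 1 (adjusted p 0.0102), with no low-count filter, in the fit of only the 2 groups and by DESeq2.

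**Figure D2:**
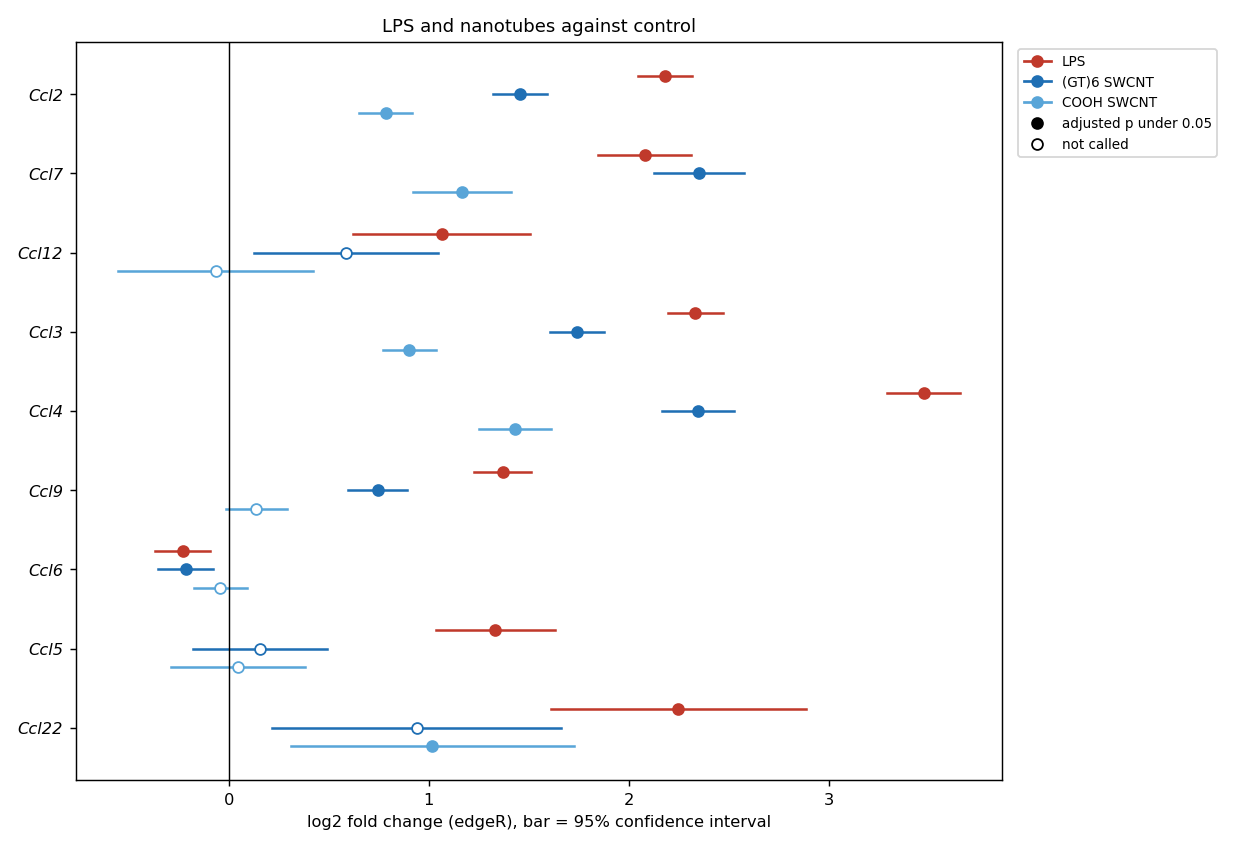
Log2 fold change against control (x axis, 0 is no difference) of 9 ligands (y axis) with LPS, (GT)6 SWCNT and COOH SWCNT. Points are edgeR estimates from 3 libraries a group, bars are 95% confidence intervals, and filled points have an adjusted p under 0.05. The estimates fall in the order LPS, (GT)6 SWCNT, COOH SWCNT for Ccl2, Ccl3, Ccl4 and Ccl9, while Ccl7 is at 2.35 in (GT)6 SWCNT and 2.08 in LPS. Ccl20, with 0 counts in control, is not drawn.

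The nanotubes were also set directly against LPS and against each other. These contrasts came from the same fit of all 24 libraries, and the control mean did not enter them. Of the 10 members, 7 were called lower and 1 higher in (GT)6 SWCNT than in LPS, where 21.6% of all genes were called, 11.9% lower and 9.63% higher. In COOH SWCNT against LPS, 9 were lower and 1 higher, where 37.8% of all genes were called, 19.7% lower and 18.1% higher. Both counts of lower members include Ccl20, which passed the filter through LPS alone, so its calls add no support here either. The median log2 fold changes of the members were −0.67 and −1.26, also with Ccl20 at its bound, and those of all genes were −0.01 and 0.01.

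Ccl7 was the member that was higher in (GT)6 SWCNT than in LPS, at 27.2 ± 1.88 against 22.6 ± 2.19 CPM (SD, n = 3). The difference was 0.27 ± 0.09 on the log2 scale (adjusted p 0.0251), and the lowest (GT)6 SWCNT library, at 25.2 CPM, lay above the highest LPS library, at 24.45 CPM. The call was lost without (GT)6 SWCNT replicate 1 or 2 or LPS replicate 1 (adjusted p up to 0.153), with the log2 difference between 0.20 and 0.34 over all alternatives. Its neighbour Ccl2 went the other way, at 558 ± 0.858 CPM in (GT)6 SWCNT and 922 ± 39.3 in LPS (−0.73 ± 0.06, adjusted p 1.09e-11). Ccl4 (−1.13 ± 0.08, adjusted p 1.59e-14), Ccl9 (−0.62 ± 0.07, adjusted p 1.65e-09) and Ccl3 (−0.59 ± 0.06, adjusted p 1.88e-09) were lower in (GT)6 SWCNT too. Ccl5 (−1.18 ± 0.14, adjusted p 2.7e-08) and Ccl22 (−1.31 ± 0.28, adjusted p 0.000407) were lower as well. Ccl20 had at most 1 count in a (GT)6 SWCNT or a COOH SWCNT library and was at least 6.47-fold and at least 7.175-fold lower than in LPS. Ccl6 did not differ detectably between (GT)6 SWCNT and LPS (0.02 ± 0.07, 95% confidence interval −0.13 to 0.16). It was higher in COOH SWCNT than in LPS (0.19 ± 0.07, adjusted p 0.0246), a call lost without COOH SWCNT replicate 3 or LPS replicate 3 (adjusted p up to 0.181).

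(GT)6 SWCNT stood above COOH SWCNT for 6 of the 9 members that could be judged and below it for 0, where 21.4% of all genes were called, 11.9% higher and 9.48% lower. Ccl7 had the largest difference, 2.275-fold (1.19 ± 0.10, adjusted p 1.51e-11). Ccl4 was 1.88-fold higher (0.91 ± 0.08, adjusted p 1.3e-10), Ccl3 1.785-fold (0.84 ± 0.07, adjusted p 6.61e-12), Ccl2 1.59-fold (0.67 ± 0.07, adjusted p 9.43e-10) and Ccl9 1.52-fold (0.61 ± 0.07, adjusted p 5.56e-08). In these 5 genes no library of one group overlapped the other. Ccl12 was 1.57-fold higher (0.65 ± 0.22, adjusted p 0.0316), a call lost without COOH SWCNT replicate 1 or 3 or (GT)6 SWCNT replicate 2 or 3 (adjusted p up to 0.143). Ccl5 and Ccl22 overlapped, with log2 differences of 0.11 (95% confidence interval −0.21 to 0.43) and −0.08 (−0.69 to 0.54). The nanotube concentrations were not given in the sources used here, so the coating and the amount cannot be told apart.

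**Figure D3:**
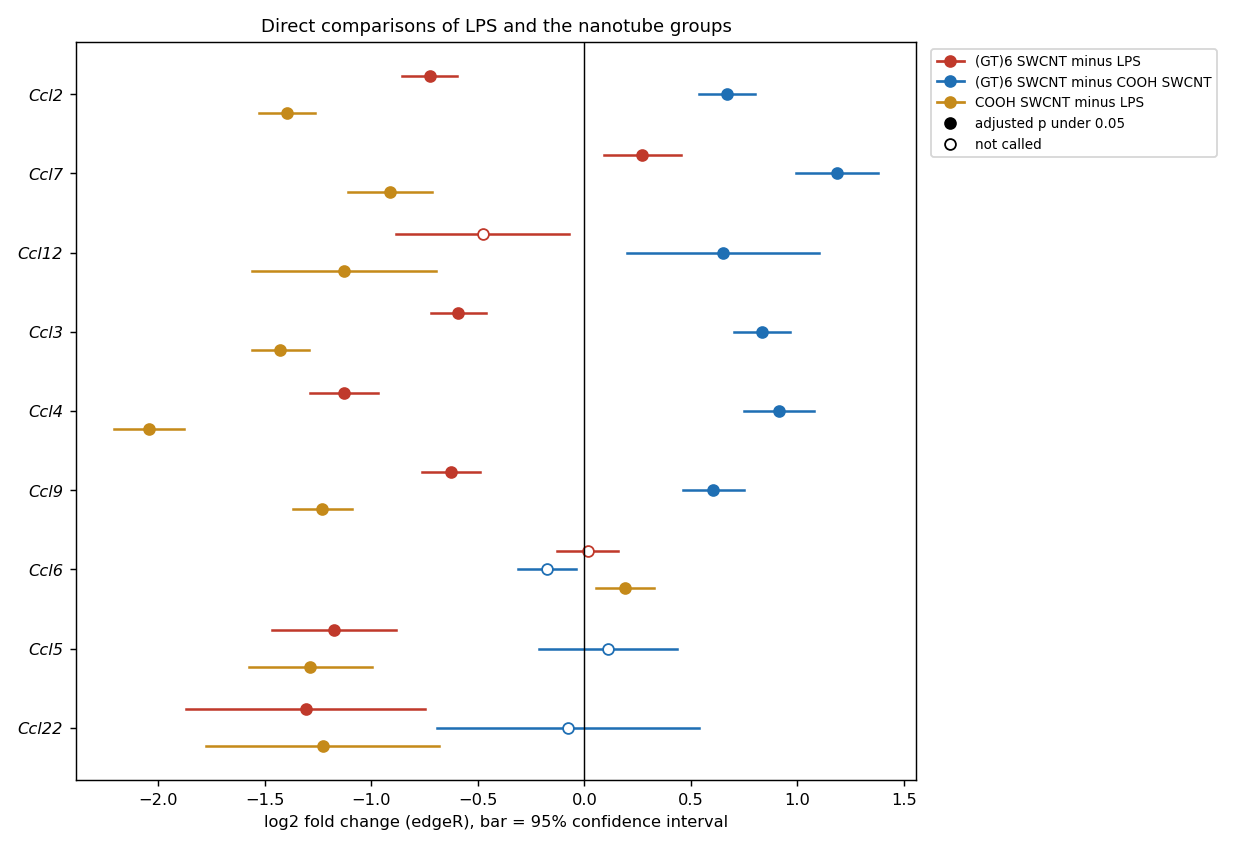
Log2 difference (x axis) of 9 ligands (y axis) between (GT)6 SWCNT and LPS, (GT)6 SWCNT and COOH SWCNT, and COOH SWCNT and LPS, from 3 libraries a group. Points are edgeR estimates, bars 95% confidence intervals, and filled points have an adjusted p under 0.05. Ccl7 is the single gene to the right of 0 in both (GT)6 SWCNT comparisons with a filled point, at 0.27 and 1.19.

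Ccl2, Ccl3 and Ccl4 fell with DiBASC2, and Ccl9 and Ccl6 were not called. Against control 4 of the 9 members that could be judged were called lower and 0 higher, where 5.47% of all genes were called, 3.64% lower and 1.82% higher. The 4 were Ccl2, Ccl3, Ccl4 and Ccl7. Ccl4 was at 27.8, 28.3 and 27.7 CPM, below each control library, and fell by 0.93 ± 0.10 on the log2 scale (adjusted p 4.95e-08). Ccl2 was at 127, 132 and 113 CPM (−0.72 ± 0.07, adjusted p 2.87e-09). Ccl3 was at 215.5, 208 and 214 CPM (−0.65 ± 0.07, adjusted p 1.37e-08). All DiBASC2 libraries lay below all control libraries for these 3 genes. Ccl7, at 3.82, 3.66 and 3.89 CPM, was also below every control library (−0.50 ± 0.14, adjusted p 0.0316), but its call was lost whichever of the 6 libraries was removed, with an adjusted p from 0.0529 to 0.175. Ccl9, Ccl6 and Ccl5 were not called, with log2 differences of −0.11 ± 0.08, −0.04 ± 0.07 and 0.23 ± 0.16.

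Di-2-ANEPEQ, the other voltage-sensitive dye, had 2 members called lower and 0 higher against control, where 3.08% of all genes were called, 2.39% lower and 0.686% higher. Ccl2 was at 181.5, 155 and 149 CPM (−0.33 ± 0.07, adjusted p 0.00324) and Ccl9 at 40.3, 35.7 and 35.4 CPM (−0.29 ± 0.08, adjusted p 0.0229). Both calls depended on single libraries. The Ccl2 call was lost without Di-2-ANEPEQ replicate 3 or control replicate 1 (adjusted p up to 0.0601), and the Ccl9 call without Di-2-ANEPEQ replicate 2 or 3 or control replicate 1 (adjusted p up to 0.169). Ccl3 and Ccl4 overlapped the controls (−0.01 ± 0.07 and 0.05 ± 0.09). Ccl7, at 3.76, 4.09 and 4.13 CPM, lay below every control library and was not called (−0.43 ± 0.14, adjusted p 0.0943). The same held for Ccl12, with only 16 to 31 counts per Di-2-ANEPEQ library (−0.60 ± 0.25, adjusted p 0.208). Ccl5, at 4.17, 4.85 and 4.22 CPM, lay just above every control library and was not called (0.26 ± 0.16, adjusted p 0.430).

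Compared directly, DiBASC2 was below Di-2-ANEPEQ for 3 members and above it for 0, where 8.95% of all genes were called, 5.48% lower and 3.47% higher. These were Ccl4 (−0.98 ± 0.10, adjusted p 1.57e-08), Ccl3 (−0.64 ± 0.07, adjusted p 2e-08) and Ccl2 (−0.39 ± 0.07, adjusted p 0.000189), each without overlap between the 6 libraries. Ccl7 did not differ detectably between the dyes (−0.07 ± 0.14, 95% confidence interval −0.37 to 0.22). Ccl9 was at 42.3 ± 0.927 CPM in DiBASC2 and 37.1 ± 2.78 in Di-2-ANEPEQ, which was not called (0.19 ± 0.07, adjusted p 0.115).

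With Fura-2, edgeR called 0 of the 9 members that could be judged, where 0.252% of all genes were called, 0.0381% higher and 0.213% lower, and 1 member had an unadjusted p under 0.05. That member was Ccl9, at 43.7, 37.2 and 35.3 CPM (−0.24 ± 0.08, adjusted p 0.204). It was called lower without Fura-2 replicate 1 (adjusted p 0.0334) and with no low-count filter (adjusted p 0.0102). The fit with no low-count filter gave far smaller adjusted p-values for several members, so its call carries less weight. By DESeq2 0 of the 8 members with an adjusted p were called. The intervals of the log2 differences of Ccl2, Ccl3 and Ccl4 ran from −0.25 to 0.02, from −0.08 to 0.19 and from −0.11 to 0.28.

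AAV had 1 member called higher and 0 lower, where 5.00% of all genes were called, 1.84% higher and 3.16% lower. Ccl3 was at 382, 382.5 and 405 CPM, each above the highest control library at 358 (0.23 ± 0.07, adjusted p 0.0379). Its call was lost without AAV replicate 2 or 3 or control replicate 2 or 3 (adjusted p up to 0.203) and by DESeq2. Ccl4 was not called (0.14 ± 0.09, adjusted p 0.396). Ccl2, at 184.5, 174 and 185 CPM, lay below the control libraries and was not called (−0.17 ± 0.07, adjusted p 0.134), though it was in the fit of only the 2 groups and with no low-count filter. Ccl9 was not called (−0.19 ± 0.08, adjusted p 0.142) and was called lower without AAV replicate 1 (adjusted p 0.0404).

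**Figure D4:**
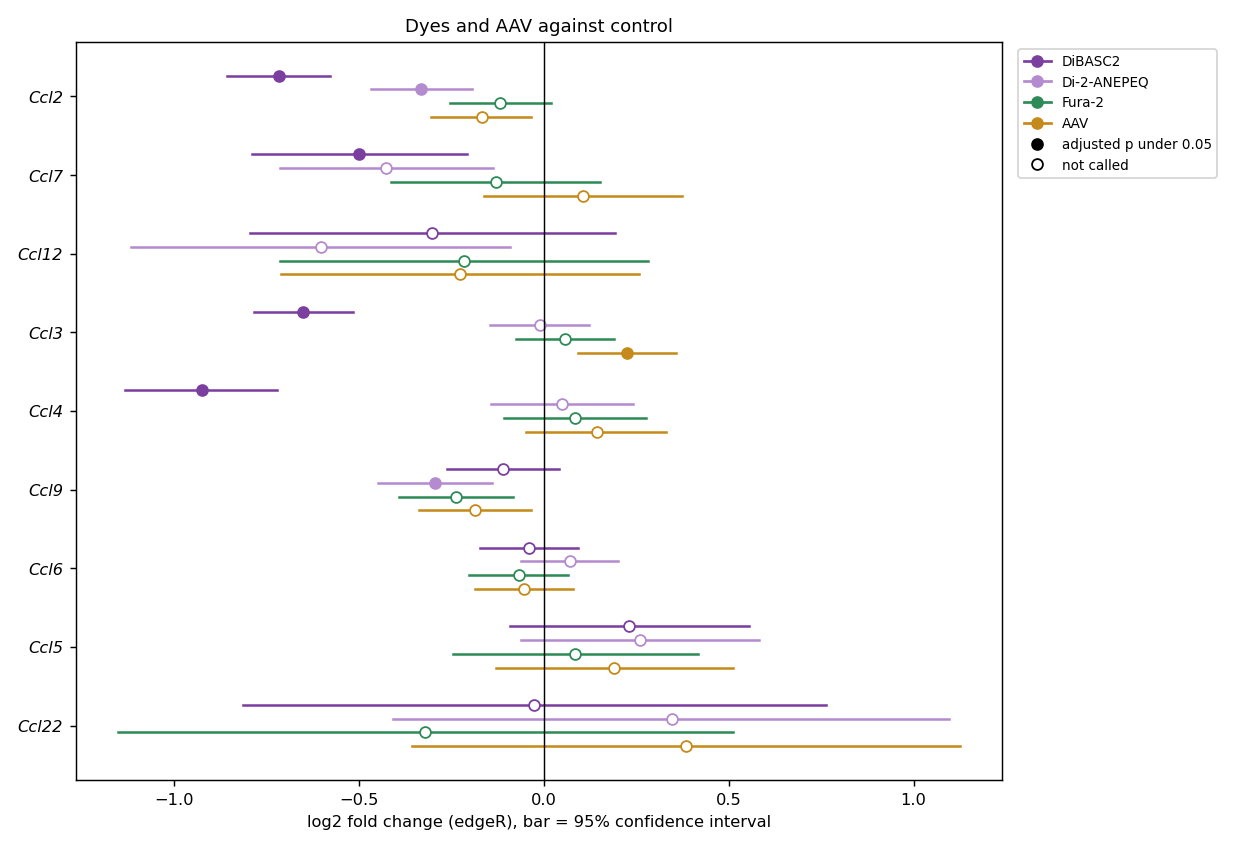
Log2 fold change against control (x axis) of 9 ligands (y axis) with DiBASC2, Di-2-ANEPEQ, Fura-2 and AAV, from 3 libraries a group. Points are edgeR estimates, bars 95% confidence intervals, and filled points have an adjusted p under 0.05. DiBASC2 is at −0.72, −0.65 and −0.93 for Ccl2, Ccl3 and Ccl4, and the interval of Ccl22 spans 0 in all 4 groups.

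The order of the 8 groups differed between ligands. For Ccl3 and Ccl4 it began with LPS, (GT)6 SWCNT, COOH SWCNT and AAV, the first 3 each apart from the next, and DiBASC2 was lowest and apart. In between, AAV was apart from Fura-2 for Ccl3 and overlapped it for Ccl4, and Fura-2, control and Di-2-ANEPEQ overlapped their neighbours for both. For Ccl2 the first 3 were the same and apart from control, after which control, Fura-2, AAV and Di-2-ANEPEQ overlapped their neighbours, with DiBASC2 lowest and apart. For Ccl5 LPS stood apart and the other 7 groups, from 4.41 CPM in Di-2-ANEPEQ to 3.64 CPM in control, overlapped their neighbours. For Ccl6 every group overlapped the next, from 28.9 CPM in Di-2-ANEPEQ to 23.5 CPM in LPS.

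The members too low to judge were as follows. Ccl20 held at most 1 count in any of the 21 libraries outside LPS and could be compared only where LPS was one of the groups. Ccl22 held 6 to 40 counts per library outside LPS and Ccl12 held 16 to 60. Both were tested, but the SE of their log2 fold changes against control reached 0.41 and 0.25. At this depth differences as large as 0.94 for Ccl22 in (GT)6 SWCNT and −0.60 for Ccl12 in Di-2-ANEPEQ were not called. In LPS Ccl22 and Ccl12 had 52 to 66 and 51 to 81 counts.

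Pearson's r over the 8 group means of log2 CPM, against 9493 genes with at least 5 CPM, described which genes had the most alike pattern. For Ccl4 these were Csrnp1 (r = 0.998), Junb (0.998) and Ccl3 (0.997), and for Ccl3 they were Zbtb10 (0.998), Dusp8 (0.997) and Ccl4 (0.997). For Ccl2 they were Ccl4 (0.994), Bcl10 (0.993) and Btg2 (0.993), and for Ccl7 Gmeb2 (0.993), Pdgfb (0.991) and Kansl1l (0.991). For Ccl5 they were Ppfibp2 (0.983), Ncf1 (0.982) and Cebpd (0.980). Between members, r was 0.994 for Ccl2 with Ccl4, 0.958 for Ccl2 with Ccl7 and 0.475 for Ccl5 with Ccl7. Ccl6 had a negative r with every other member, from −0.596 with Ccl5 to −0.928 with Ccl12, and −0.890 with Ccl9. Its group means had a narrow range in which each group overlapped the next. These values rest on 8 points that share the same libraries.

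Of 11 other CC ligands listed, 3 could be tested. Ccl17, a Ccr4 ligand like Ccl22, had 8 to 14 counts in the LPS libraries and 0 in control and in both nanotube groups, and was at least 3.50-fold higher in LPS than in control. Like Ccl20, it passed the low-count filter through its LPS libraries alone, so its call adds no support. Ccl24 and Ccl25 were not called in LPS against control (−0.27 ± 0.16, adjusted p 0.237, and 0.04 ± 0.12, adjusted p 0.849). Set directly against LPS, Ccl24 was called higher in COOH SWCNT (0.46 ± 0.15, adjusted p 0.0146). In (GT)6 SWCNT against LPS it was not called (0.398 ± 0.155, adjusted p 0.0633). Of 14 CC receptors and related proteins, 5 could be tested. With LPS 2 were called higher and 0 lower, namely Ccrl2, an atypical receptor that binds the attractant chemerin, and Ccr7, the receptor for lymph node homing, where 13.8% of all genes were called higher. Ccrl2 rose from 4.36 ± 0.584 to 52.9 ± 4.93 CPM with LPS (3.60 ± 0.10, adjusted p 1.01e-26). It also rose in (GT)6 SWCNT, to 11.4 ± 0.555 CPM (1.39 ± 0.12, adjusted p 8.59e-12), and in COOH SWCNT, to 11.2 ± 0.873 CPM (1.35 ± 0.12, adjusted p 4.29e-11), and fell in DiBASC2 to 2.64 ± 0.488 CPM (−0.73 ± 0.15, adjusted p 0.0018). It was not called between the nanotube groups (0.04 ± 0.10, adjusted p 0.834). Ccr7 had 13 to 18 counts in LPS and at most 1 in control, at least 5.04-fold higher, and it too passed the filter through LPS alone. Ccr1, a receptor of Ccl3, Ccl5, Ccl6 and Ccl9, was at 1.54 ± 0.524 CPM in control and was not called with LPS (−0.55 ± 0.30, adjusted p 0.179). Nor was Ccr1 called against control in (GT)6 SWCNT (adjusted p 0.138) or COOH SWCNT (adjusted p 0.313). Both nanotube groups were called higher than LPS for Ccr1, by 1.09 (adjusted p 0.00267) and 0.94 (adjusted p 0.00619) on the log2 scale.

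A list of 24 regulators of chemokine transcripts, among them NF-kB subunits, AP-1 factors, interferon regulatory factors and RNA decay proteins, was tested whole. With LPS 18 were higher and 3 lower, where 13.8% of all genes were higher and 14.5% lower. With (GT)6 SWCNT 16 were higher and 1 lower (all genes 9.90% and 10.5%), and with COOH SWCNT 17 higher and 1 lower (9.39% and 10.6%). With DiBASC2 0 were higher and 10 lower (all genes 1.82% and 3.64%), and with Di-2-ANEPEQ 0 higher and 2 lower (0.686% and 2.39%). With Fura-2 and AAV edgeR called 0, where 0.252% and 5.00% of all genes were called, and 4 and 5 of the 24 had an unadjusted p under 0.05. The median log2 fold changes were 0.98, 0.40, 0.31, −0.09, 0.03, 0.04 and 0.05 in LPS, (GT)6 SWCNT, COOH SWCNT, DiBASC2, Di-2-ANEPEQ, Fura-2 and AAV. Nfkbiz, a nuclear IkB protein, rose from 15.9 ± 1.27 to 844 ± 7.73 CPM with LPS (5.72 ± 0.05, adjusted p 3.95e-42). With (GT)6 SWCNT it reached 24.2 ± 1.51 CPM (0.60 ± 0.06, adjusted p 1.25e-09) and with COOH SWCNT 22.8 ± 0.554 CPM (0.52 ± 0.06, adjusted p 8.05e-08). Zc3h12a, an RNase that degrades inflammatory transcripts, rose from 5.42 ± 0.248 to 92.1 ± 5.69 CPM with LPS (4.08 ± 0.09, adjusted p 6.01e-31), and to 7.225 ± 0.259 (0.41 ± 0.11, adjusted p 0.00641) and 7.455 ± 0.523 CPM (0.46 ± 0.11, adjusted p 0.00255) with (GT)6 SWCNT and COOH SWCNT. Ifnb1, the interferon beta gene, had 9 to 14 counts in LPS and at most 1 in control, at least 3.62-fold higher. It is among the 18 called with LPS, but it passed the filter through LPS alone.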

How the data were processed

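Poly-A RNA libraries of 24 SIM-A9 samples were analysed from a single table of unnormalized read counts by gene that the authors deposited. Per the submitters' processing notes STAR 2.5.4b and the build GRCm38.p6 were used. How reads were counted, including strand and multiple matches, is not given in the sources used here. Gene symbols came from GENCODE M21, which matched 54723 of 54838 identifiers without their version suffix. Each column name matched 1 sample title.

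The deposited counts were tested with edgeR 4.0.16 under R 4.3.3 (filterByExpr, 13116 genes kept, TMM factors, glmQLFit with a mean per group on 24 libraries, 16 residual degrees of freedom, glmQLFTest, two-sided). P-values were adjusted by Benjamini-Hochberg over all genes within each of 11 contrasts and called under 0.05. The standard error was the absolute log2 fold change divided by the square root of F. A group was at the floor where no library held more than 3 counts. Each fold given as at least a value is the mean CPM of the higher group divided by that floor in CPM. It makes no allowance for the spread within the higher group. RPKM here are CPM per kilobase of merged exons. Each of the 24 replicate pairs differed beyond sampling noise (chi-square per degree of freedom 2.52 to 20.5). The precision of low genes is limited by totals of 17364272 to 29259221 counts. The fits were also run on simulated counts drawn with the spread of these libraries. The outcome is not given here, and such counts cannot show whether that spread is technical.

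The 10 members, the lists and the tests were chosen with earlier results of these data known. The members were named whatever their values, and from each other list at most the 3 largest changes called with LPS, besides Ccl24, Ccl25 and Ccr1, which were chosen after their values were seen. Alternatives changed the scaling (DESeq2 or upper-quartile factors), the low-count filter (none, or a mean of 50 counts), the model (replicate block, or only the 2 groups), the tool (DESeq2 1.42.0) or removed a single library.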

Additional observations from a re-analysis of the deposited data

How the results depend on the processing

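Across 1291 alternatives to the 102 single-gene results, 36 lost a call, 14 gained one and 0 called values reversed their sign, and 26 values changed sign with no call in either fit. The number of members called stayed within 1.5 times for LPS, both nanotube groups, DiBASC2 and the 4 direct comparisons between treatments under each alternative run. In Fura-2 it was 1 in place of 0 with no low-count filter and from 0 to 1 with single libraries left out. In Di-2-ANEPEQ it was from 0 to 2 with single libraries left out, against 2. In AAV, against 1, it was 2 with no low-count filter, 2 in the fit of only the 2 groups, 0 of the 5 members with an adjusted p by the DESeq2 test, and from 0 to 2 with single libraries left out. The cause was not tested. With upper-quartile factors the median log2 fold change of all genes went from −0.01 to −0.05 for LPS and from 0.01 to 0.06 for COOH SWCNT against LPS.

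With the replicate number as a block, 10 members were called in LPS, 6 in (GT)6 SWCNT, 5 in COOH SWCNT, 4 in DiBASC2, 2 in Di-2-ANEPEQ, 1 in AAV and 0 in Fura-2, the same numbers as without it, and no call of a member changed. Libraries with the same number did not deviate together (0 of 84 pairs with a correlation over 0.1, median 0.00), and 5 of 24 libraries were nearest to their own number. Depth limits Ccl12, Ccl20 and Ccl22, and the fit of only the 2 groups and the filter at a mean of 50 counts left some of these untested.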
